A study of Homo sapiens with 12 samples.

Results

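HepaRG cells, a human hepatic line, were exposed for 4 h to 400 µM palmitate together with 200 µM oleate, and their messenger RNA was compared with that of untreated cells. Palmitate is a saturated and oleate a monounsaturated fatty acid, and the palmitate carried a deuterium label. The PA+OA group and the control group had 3 libraries each, 6 of the 12 libraries in the series. Another group, which received 400 µM palmitate without oleate (PA, 3 libraries), is given beside them where levels are set side by side. All groups carry the wild-type label, and no label says whether the vehicle or carrier of the fatty acids was given to control cells. Of 58735 annotated genes, 11227 reached 1 FPKM (fragments per kilobase of gene, scaled to library size) in at least 3 of the 6 libraries and were tested.

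In liver cells an excess of palmitate is known to disturb the endoplasmic reticulum (ER) membrane and to start the unfolded protein response, while oleate is known to promote storage of fatty acids as triglyceride. The response has 3 known sensors in the ER membrane. PERK phosphorylates the initiation factor eIF2, which slows translation in general and raises that of ATF4, the transcription factor of the integrated stress response. IRE1 splices the message of XBP1, and ATF6 is cut to release a transcription factor, and both raise chaperones and degradation factors of the ER. Separately, heat shock factor raises cytosolic chaperones when proteins misfold there, SREBP2 raises cholesterol synthesis genes when ER sterol is low, and fatty acids are ligands of the PPAR receptors.

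Promoter sequences are shown for 6 genes that lead the stress results below, because each holds a short sequence known to bind the transcription factors of one of these responses. The windows are 100 bases from the 250 bases before the RefSeq start site on GRCh38.p14, written 5′ to 3′ on the strand of the gene, with the match in capitals. The sequence TGATGCAA or its reverse complement, known to bind ATF4 with a C/EBP partner, lies before CHAC1 (chr15:40953242-40953341, plus strand) and FGF21 (chr19:48755424-48755523, plus strand).
CHAC1: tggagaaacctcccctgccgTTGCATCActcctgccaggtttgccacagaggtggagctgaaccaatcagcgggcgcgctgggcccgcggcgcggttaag
FGF21: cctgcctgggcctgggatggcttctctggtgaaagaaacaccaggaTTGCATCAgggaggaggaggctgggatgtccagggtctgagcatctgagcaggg
The ER stress response element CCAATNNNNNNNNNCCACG, known to bind ATF6 with NF-Y, lies before HSPA5 (chr9:125241344-125241443, minus strand) and XBP1 (chr22:28800570-28800669, minus strand).
HSPA5: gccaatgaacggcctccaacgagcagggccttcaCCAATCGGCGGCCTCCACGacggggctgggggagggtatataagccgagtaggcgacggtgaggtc
XBP1: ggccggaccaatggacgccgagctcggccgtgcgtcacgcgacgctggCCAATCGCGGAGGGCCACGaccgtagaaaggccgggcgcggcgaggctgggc
Its second form, ATTGGNCCACG, lies before HERPUD1 (chr16:56932005-56932104, plus strand).
HERPUD1: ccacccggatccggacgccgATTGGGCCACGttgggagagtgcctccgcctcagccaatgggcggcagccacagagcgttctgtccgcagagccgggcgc
The heat shock element GAANNTTCNNGAA lies before HSPA6 (chr1:161524440-161524539, plus strand).
HSPA6: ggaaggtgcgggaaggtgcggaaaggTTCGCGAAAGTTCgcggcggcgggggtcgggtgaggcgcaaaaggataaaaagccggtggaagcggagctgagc

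Searched on both strands of the same 250 bases of 35116 RefSeq promoters, TGATGCAA was present in 0.772%, the first ER element in 0.074%, the second in 0.0513% and the heat shock element in 0.441%. The 6 genes were chosen with their values known, so the matches describe these promoters and test nothing. A match is not a measured binding site. Of 127 named genes with a promoter in the table, 5 held TGATGCAA (CHAC1, FGF21, GOT1, HERPUD1 and SLC1A5), 2 held the first ER element (HSPA5 and XBP1), 1 the second (HERPUD1) and 1 the heat shock element (HSPA6). The gene spans given with the values are those of GENCODE 29, which start elsewhere for some genes. The window of CHAC1 lies inside its span there, and those of HERPUD1 and XBP1 lie in part inside theirs.

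The whole reads behind the values, recovered from FPKM and gene length, summed to between 16059128 and 18908363 per library. The library size behind the FPKM was 0.827 of these reads in PA+OA replicate 1 and 1.03 to 1.10 of them in the others. A smaller size gives higher FPKM for the same reads. FPKM summed to 402688 in PA+OA replicate 1 and to 267959 to 302769 in the others. The origin of this scaling is not stated. PA+OA replicate 1 stood apart from the rest of its group. On the second principal component, which held 16.1% of the variance, it lay at 20.7, against -15.9 and -20.8 for PA+OA replicates 2 and 3. On the first component (72.3% of the variance), where PA+OA libraries lay above control libraries, PA+OA replicate 1 was at 48.8 against 21.1 and 15.9. Control replicate 1 differed from the other controls in the same sense on this component, at -16.9 against -35.1 and -33.9. Genes that rose had a higher median GC content (56.0%) than genes that fell (43.9%), and GC content and length together went with 24.6% of the variance of the log2 changes across genes, or 12.6% without PA+OA replicate 1. Mitochondrial ribosomal RNA, which a poly(A) selection leaves only in part, took 2.10%, 1.505% and 1.64% of reads in PA+OA libraries and 0.610%, 0.629% and 0.784% in control libraries. The part of GC content in the results was addressed by a fit with each library's GC and length trend removed, and that of mitochondrial ribosomal RNA was not tested.

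Markers of mature hepatocytes were nearly absent in both groups. Of 28 hepatocyte markers, 26 stayed under 1 FPKM in all 6 libraries and 10 had no read. ALB, the albumin gene, and FABP1, a carrier of fatty acids in hepatocytes, had no read; 3 reads equal at most 0.0586 FPKM for ALB and 0.0801 FPKM for FABP1. FABP4, a fatty acid-binding protein of adipocytes and macrophages, also had no read (3 reads: 0.142 FPKM). PLIN2, which coats lipid droplets, had 4 reads in the 6 libraries, and CD36, a fatty acid transporter, reached at most 0.182 FPKM. None of these 5 was tested. Of the hepatocyte markers tested, CPS1, a urea cycle enzyme, had 50.4, 72.3 and 80.8 FPKM in PA+OA libraries and 118, 139 and 147 FPKM in control libraries, and fell (log2 change -0.998 ± 0.20 (SE), limma adjusted p = 0.0103, up to 0.0587 without control replicate 2 or 3). HPD, of tyrosine breakdown, had 77.6, 48.7 and 45.1 FPKM in PA+OA libraries and 47.8, 37.8 and 44.7 FPKM in control libraries, which overlap. In bulk RNA, fewer cells of a type and less RNA per cell cannot be told apart. Leukocyte markers summed to 2.26 to 2.496 FPKM in PA+OA libraries and 1.63 to 2.36 FPKM in control libraries, with 8 of 9 under 1 FPKM in all 6 and 5 at 0. Endothelial markers summed to 0.367 to 0.564 FPKM in PA+OA libraries and 1.44 to 1.94 FPKM in control libraries, with 8 of 9 under 1 FPKM and 2 at 0. The 1 endothelial marker tested was called lower. It passed the filter through the control libraries alone, so its direction was fixed by it.

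Palmitate with oleate changed the level of 3203 of the 11227 genes (28.5%) at a Benjamini-Hochberg adjusted p under 0.05 in limma's moderated test on log2(FPKM + 1). Of these, 1470 (13.1% of genes tested) rose and 1733 (15.4%) fell, and 584 changed by at least 2-fold on this scale, on which low genes appear to change less than they do. The median log2 change of all genes tested was 0.01. Rises made up 45.9% of the calls, and 30.0% of 3040 calls when library FPKM sums were set equal, where the median of all genes moved to -0.18. The count depended on single libraries. It was 3784 without PA+OA replicate 1, of which 3054 were shared with the 3203, but 1936 without PA+OA replicate 2, 1106 without control replicate 2 and 1067 without control replicate 3. With the replicate number as a block, 5334 genes were called, the 3203 among them. No label says that replicates were grown separately, so p-values measure a spread that may be technical.

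**Figure D1:**
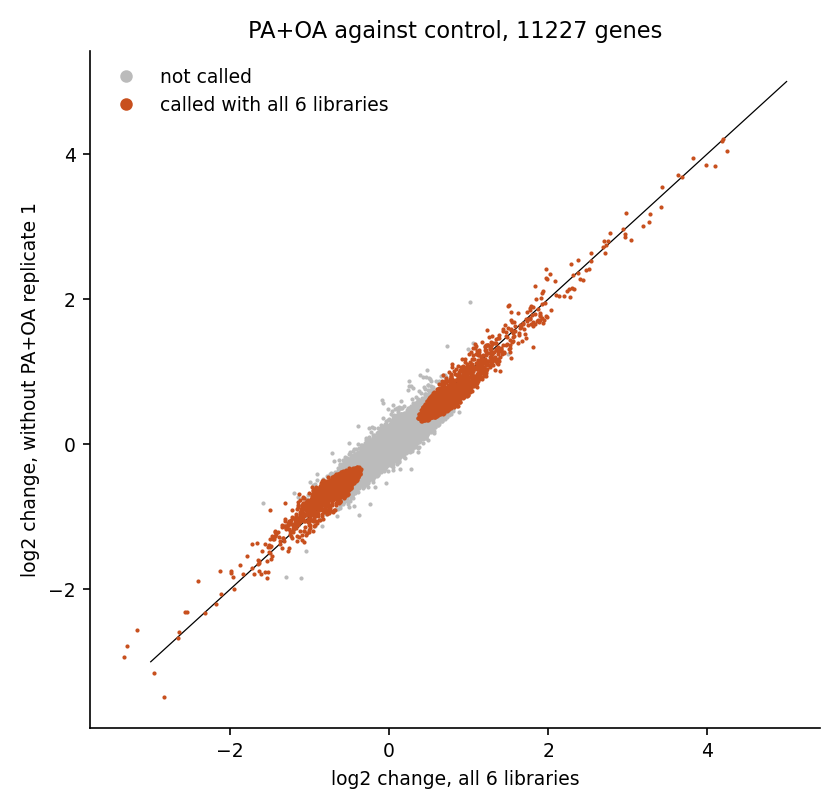
Log2 change of PA+OA against control for 11227 genes, estimated from all 6 libraries (x axis) and without PA+OA replicate 1 (y axis), with the line of equality; the 3203 genes called with all 6 libraries are coloured. Called genes lie near the line in both directions, and 3054 of them were also called in the same direction without that library.

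The 12 largest rises among protein-coding genes were CHAC1, ATF3, DDIT3, ANGPTL4, SESN2, GADD45A, HERPUD1, JUN, EGR1, PPP1R15A, KLF2 and FGF21. Their log2 changes ran from 3.27 for FGF21 to 4.25 for CHAC1. The 12 largest falls were DKK1, TENT5A, PLCL2, TNS4, CHML, NPTX1, AATK, MKI67, LPCAT1, LRFN1, PHF23 and RBM12, with log2 changes from -2.12 for DKK1 to -1.602 for RBM12. In all 24 the PA+OA and control libraries did not overlap, which the rule that named them required. Each of the 24 stayed called when any 1 of the 6 libraries was left out.

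**Figure D2:**
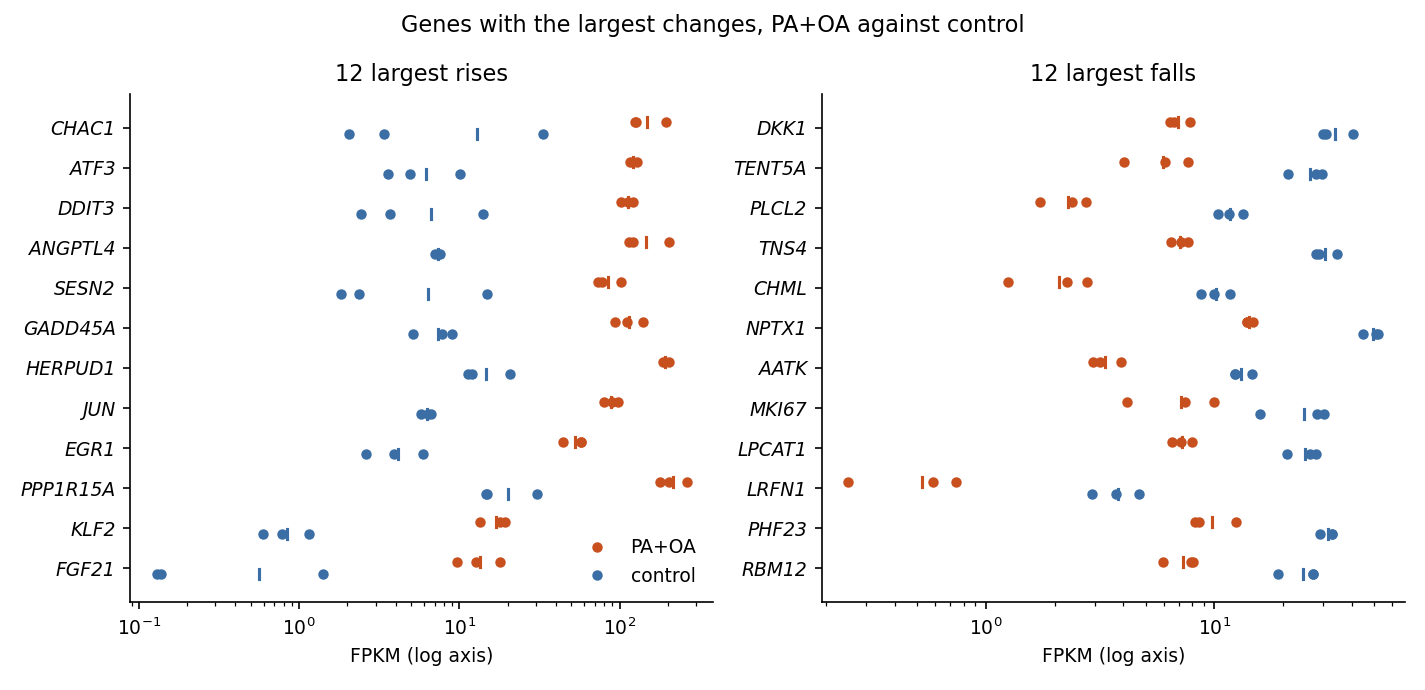
FPKM on a log axis of the 12 largest rises (left) and 12 largest falls (right) among protein-coding genes; each point is 1 of 3 PA+OA (orange) or 3 control (blue) libraries and each bar their mean. Control replicates of CHAC1, DDIT3 and SESN2 spread widely, while ANGPTL4 and JUN were close to constant in control cells.

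Most genes of the integrated stress response rose. Of 26 members tested, 19 rose and 2 fell, with a median log2 change of 1.54. Here and in each list below, the shares over all genes tested are 13.1% higher and 15.4% lower. Without control replicate 2 or without control replicate 3, 13 rose and 1 fell. With the replicate block 19 rose and 4 fell.

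CHAC1 degrades glutathione and is a known target of ATF4 (ENSG00000128965, chromosome 15, 40952962 to 40956519 on GRCh38). It had 194, 125 and 126 FPKM in PA+OA libraries, against 33.4, 3.38 and 2.04 FPKM in control libraries. Control replicate 1 was about an order of magnitude above the other controls, yet below every PA+OA library. The log2 change was 4.25 ± 0.77 (SE), with an adjusted p of 0.00669 in limma. ATF3, a stress-induced transcription factor (ENSG00000162772, chromosome 1, 212565334 to 212620777), had 120.5, 129 and 117 FPKM in PA+OA libraries and 10.03, 4.88 and 3.57 FPKM in control libraries (log2 change 4.203 ± 0.29, adjusted p = 0.000143). DDIT3 encodes CHOP, the transcription factor linked to death of stressed cells (ENSG00000175197, chromosome 12, 57516588 to 57521737). Its level was 113, 122 and 103 FPKM in PA+OA libraries and 13.95, 3.68 and 2.43 FPKM in control libraries (log2 change 4.19 ± 0.46, adjusted p = 0.000968). DDIT3 overlaps MARS, so some reads of the pair may be shared.

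PPP1R15A, the regulatory subunit that directs dephosphorylation of eIF2, had 263, 203 and 179 FPKM in PA+OA libraries and 30.5, 14.97 and 14.7 FPKM in control libraries. TRIB3, a pseudokinase that restrains ATF4, had 648, 388 and 401 FPKM in PA+OA libraries and 78.8, 42.3 and 50.9 FPKM in control libraries. Both groups were apart for both genes, with log2 changes of 3.42 ± 0.28 and 3.05 ± 0.28 (SE). FGF21, a hormone of fasting and stress secreted by liver, was nearly silent in control cells. Its level was 18.01, 12.7 and 9.71 FPKM in PA+OA libraries and 1.41, 0.129 and 0.137 FPKM in control libraries (log2 change 3.27 ± 0.32, adjusted p = 0.000558). GDF15, a secreted stress factor that lowers appetite, averaged 280.1 ± 68.2 FPKM in PA+OA libraries and 32.6 ± 20.1 FPKM in control libraries (SD, n = 3 each; adjusted p = 0.00111 in limma). SESN2, a stress-induced inhibitor of mTORC1, averaged 84.2 ± 15.2 FPKM in PA+OA libraries and 6.37 ± 7.41 FPKM in control libraries (adjusted p = 0.00253 in limma).

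ATF4 itself had a smaller change and its controls disagreed. It had 528, 424 and 381 FPKM in PA+OA libraries and 241, 105 and 76.3 FPKM in control libraries, with control replicate 1 above the other controls and below every PA+OA library. The log2 change was 1.81 ± 0.38 (SE) and the adjusted p 0.0111, which became 0.05, just above the threshold, without control replicate 2. ATF4 is known to be controlled mainly in translation, which these data do not measure. Among the members, EIF2AK2, which encodes the double-stranded RNA kinase PKR, fell. It had 1.33, 1.798 and 2.47 FPKM in PA+OA libraries and 3.77, 5.14 and 5.16 FPKM in control libraries (log2 change -0.999 ± 0.18, adjusted p = 0.00662), and was singled out after its value was seen.

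Enzymes of amino acid synthesis, many of them known ATF4 targets, also rose. Of 17 tested, 10 rose and none fell, at a median log2 change of 0.66. The count was 4 without control replicate 2 and 5 without control replicate 3. When library FPKM sums were set equal, 9 rose and 2 fell. ASNS, asparagine synthetase, had 5.29, 6.101 and 6.58 FPKM in PA+OA libraries and 1.16, 1.02 and 0.929 FPKM in control libraries (log2 change 1.78 ± 0.13, adjusted p = 0.000158). GOT1, the cytosolic aspartate aminotransferase, had 107, 94.6 and 87.4 FPKM in PA+OA libraries and 33.8, 28.8 and 32.7 FPKM in control libraries. CTH, which makes cysteine from cystathionine, and PCK2, the mitochondrial enzyme that makes phosphoenolpyruvate, rose with log2 changes of 1.18 ± 0.14 and 1.63 ± 0.21 (SE). For all 4 genes every PA+OA library was above every control library.

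Amino acid transporters and transfer RNA synthetases had calls in both directions. Over all genes tested 13.1% rose and 15.4% fell, and the share that fell in each of these families was near this. Of 14 transporters, 4 rose and 2 fell, against 8 and 2 without PA+OA replicate 1 and 3 and 1 without control replicate 2 or 3. SLC1A4 and SLC1A5, carriers of neutral amino acids, and SLC43A1, a carrier of large neutral amino acids, rose by log2 changes of 1.27 ± 0.15, 1.22 ± 0.22 and 1.08 ± 0.16 (SE). SLC7A6, an exchanger of basic for neutral amino acids, fell (log2 change -0.91 ± 0.12, adjusted p = 0.00219). Of 20 synthetases, 5 rose and 4 fell, but none was called without control replicate 2 or without control replicate 3. SARS, which charges the serine transfer RNA, had 185, 129 and 124 FPKM in PA+OA libraries and 87.03, 65.9 and 74.7 FPKM in control libraries (adjusted p = 0.0128, and up to 0.0687 without either of those controls). CARS and MARS, for cysteine and methionine, had log2 changes of 0.63 ± 0.14 and 0.71 ± 0.16, and DARS, for aspartate, one of -0.59 ± 0.14 (SE). With the replicate block 8 synthetases rose and 7 fell.

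Among genes of protein folding in the ER more rose than fell. Of 22 chaperone and unfolded protein response genes, 10 rose and 2 fell, at a median log2 change of 0.54. Without control replicate 2 or control replicate 3, 7 rose and none fell. HSPA5, which encodes BiP, the main ER chaperone (ENSG00000044574, chromosome 9, 125234853 to 125241330), had 445, 653 and 590.2 FPKM in PA+OA libraries and 128, 149 and 162 FPKM in control libraries. The groups did not overlap, although PA+OA replicate 1 was the lowest of the treated libraries. The log2 change was 1.93 ± 0.20 (SE) and the adjusted p 0.000737. DNAJB9, a cochaperone of BiP, had 22.4, 23.4 and 23.5 FPKM in PA+OA libraries and 4.11, 3.57 and 3.85 FPKM in control libraries (log2 change 2.31 ± 0.12, adjusted p = 3.7e-05). XBP1, whose promoter holds the ER element shown above, had 192, 189 and 176 FPKM in PA+OA libraries and 58.96, 49.3 and 55.8 FPKM in control libraries, and gene totals do not tell its spliced form. MANF, a secreted ER stress protein, rose by a log2 change of 1.17 ± 0.13 (SE).

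Of 18 genes of ER-associated degradation, 5 rose (13.1% over all genes) and none fell (15.4%). The median log2 change of 0.13 turned to -0.09 with library FPKM sums set equal. HERPUD1, which organizes the degradation complex in the ER membrane (ENSG00000051108, chromosome 16, 56932048 to 56944863), had 192, 186 and 202 FPKM in PA+OA libraries. In control libraries it had 20.6, 11.999 and 11.3 FPKM, and the log2 change was 3.68 ± 0.22 (SE, adjusted p = 6.11e-05). SYVN1, the ubiquitin ligase of that complex, had 24.6, 21.8 and 22.5 FPKM in PA+OA libraries and 9.53, 8.61 and 8.19 FPKM in control libraries. SELENOK and SELENOS, selenoproteins of the ER membrane, had log2 changes of 0.82 ± 0.15 and 0.69 ± 0.13 (SE), and the call of SELENOS ended without control replicate 2 or 3 (adjusted p up to 0.0534). Without either of those controls 3 members rose.

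Among 27 heat shock genes, 8 rose, above the 13.1% over all genes, and 3 fell, not above the 15.4% over all genes. The median log2 change of 0.16 was -0.06 with library FPKM sums set equal. HSPA6, an inducible HSP70 (ENSG00000173110, chromosome 1, 161524540 to 161526910), had 28.8, 21.8 and 23.2 FPKM in PA+OA libraries and 0.347, 3.601 and 4.56 FPKM in control libraries. Control replicate 1 was an order of magnitude below the other controls. The log2 change was 2.97 ± 0.46 (SE, adjusted p = 0.0036). HSPA1A, another inducible HSP70 (ENSG00000204389, chromosome 6, 31815464 to 31817946), had 521, 495 and 526 FPKM in PA+OA libraries and 65.1, 212 and 195 FPKM in control libraries (adjusted p = 0.0121). Its near-identical neighbour HSPA1B can share its reads, so the division between them is uncertain. DNAJB1, an HSP40 partner of HSP70, had 423, 343 and 348 FPKM in PA+OA libraries and 77.7, 138 and 154 FPKM in control libraries (log2 change 1.63 ± 0.26). HSPB8, a small heat shock protein of selective autophagy, and DNAJB2, an HSP40 that delivers clients to the proteasome, rose by 1.05 ± 0.12 and 1.04 ± 0.16 (log2, SE). Of the 3 heat shock genes that fell, none was called without control replicate 2, without control replicate 3 or without PA+OA replicate 2. Of 29 proteasome subunits 1 was called, below the 28.5% over all genes. PSMD1 had a log2 change of -0.75 ± 0.16 (SE, adjusted p = 0.0128, and up to 0.0675 without control replicate 2 or 3). With the replicate block 7 subunits rose and 4 fell.

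**Figure D3:**
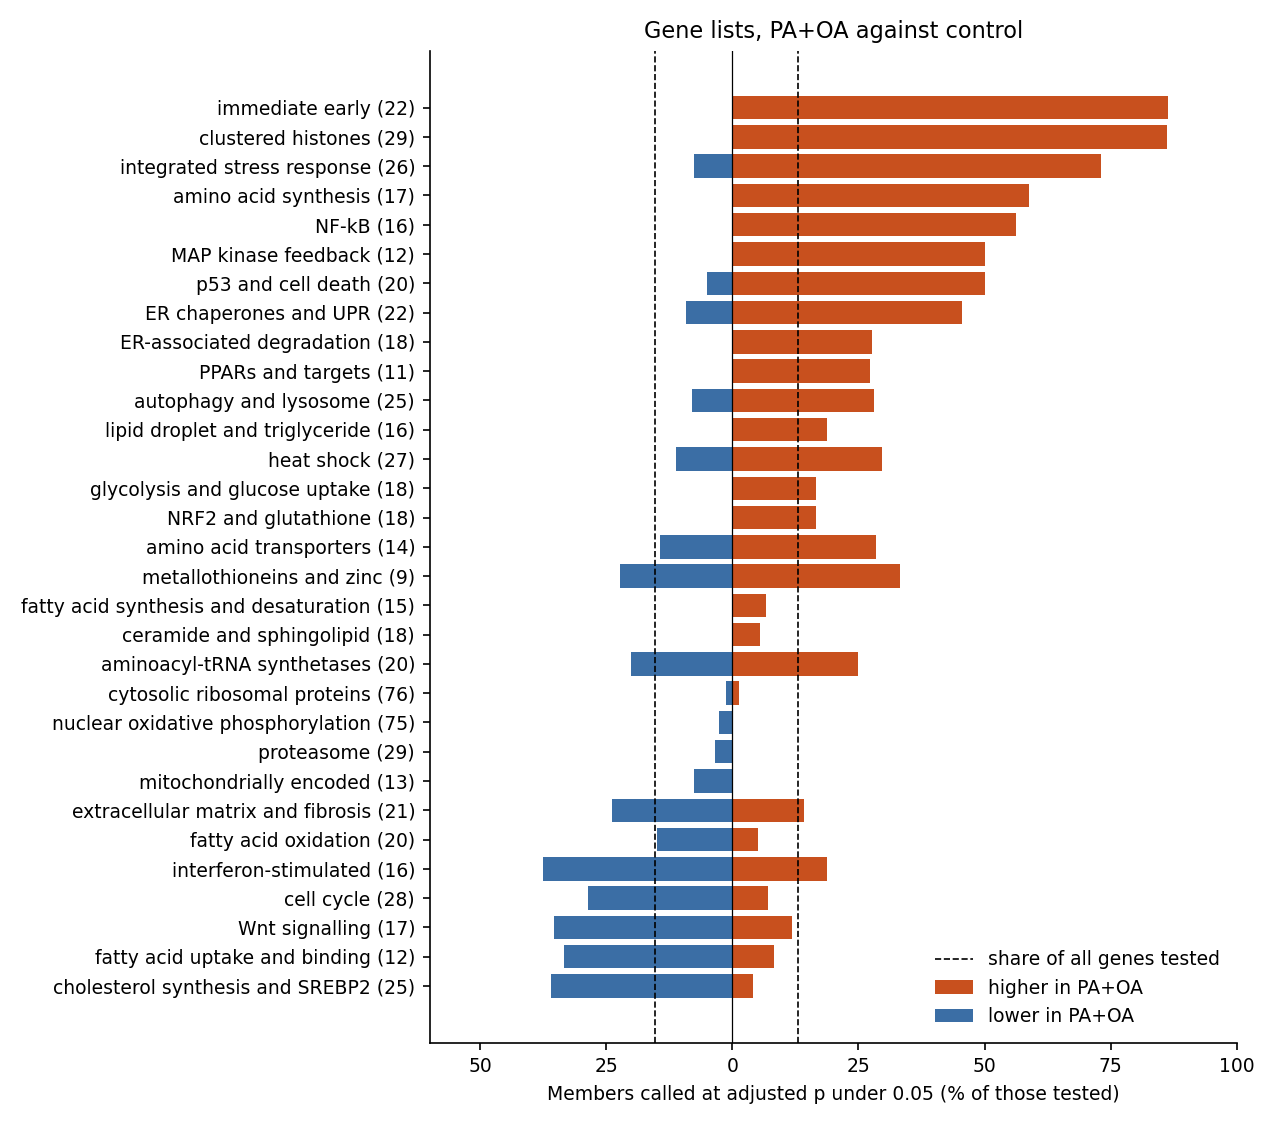
Share of the tested members of each gene list called at an adjusted p under 0.05, to the right where higher and to the left where lower in PA+OA than in control; the number of members tested is in brackets, lists with fewer than 9 tested members are left out, and dashed lines mark the shares over all 11227 genes (13.1% higher and 15.4% lower). Immediate early genes and clustered histones have the longest bars to the right, and interferon-stimulated and cholesterol synthesis genes have the longest bars to the left. Bars include members that passed the filter through 1 group alone, whose direction was fixed by it, among them 8 of the 25 clustered histones that rose.

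Immediate early genes, which cells switch on within minutes of a signal, rose almost as a whole. Of 22 tested, 19 rose and none fell, at a median log2 change of 1.22, with 14 without control replicate 3 and 14 with library FPKM sums set equal. JUN, a subunit of AP-1 (ENSG00000177606, chromosome 1, 58780788 to 58784327), had 79.9, 97.2 and 89.98 FPKM in PA+OA libraries and 5.72, 6.61 and 6.41 FPKM in control libraries. Replicates of each group were close to each other and far from the other group (log2 change 3.63 ± 0.14, adjusted p = 1.52e-05). EGR1, an early growth response factor, had 44.1, 57.3 and 57.2 FPKM in PA+OA libraries and 5.94, 3.93 and 2.601 FPKM in control libraries. KLF2, a zinc finger factor, had 19.4, 13.5 and 17.9 FPKM in PA+OA libraries and 1.15, 0.785 and 0.595 FPKM in control libraries. ZFP36, which speeds decay of AU-rich messages, rose by a log2 change of 1.34 ± 0.13 (SE).

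Of 12 feedback inhibitors of MAP kinase signalling 6 rose (13.1% over all genes) and none fell, and 3 rose without control replicate 2 or 3. DUSP6 and SPRY4, 2 of the 6, passed the filter through the PA+OA libraries alone, so their direction was fixed by it. DUSP5, a phosphatase of nuclear ERK, had 31.5, 33.2 and 34.5 FPKM in PA+OA libraries and 5.78, 3.48 and 3.901 FPKM in control libraries (log2 change 2.68 ± 0.17, adjusted p = 9.87e-05). DUSP6, its cytoplasmic relative, and SPRY4, an inhibitor of receptor signalling to ERK, rose by 1.53 ± 0.17 and 1.19 ± 0.11 (log2, SE) at levels under 4 FPKM. DUSP8, a phosphatase of stress kinases, had a log2 change of 0.83 ± 0.17 (adjusted p = 0.0107, and up to 0.0583 without control replicate 2 or 3).

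Of 16 targets of NF-kB 9 rose (13.1% over all genes) and none fell. CXCL8, IL1A and CXCL3, 3 of the 9, passed the filter through the PA+OA libraries alone. CXCL8, which encodes interleukin 8, an attractant of neutrophils (ENSG00000169429, chromosome 4, 73740506 to 73743716), had 8.38, 8.402 and 9.12 FPKM in PA+OA libraries and 0.294, 0.174 and 0.29 FPKM in control libraries (log2 change 2.94 ± 0.12, adjusted p = 1.52e-05). CXCL2, a related chemokine, had 12.05, 19.2 and 18.3 FPKM in PA+OA libraries and 1.13, 1.36 and 1.04 FPKM in control libraries. The cytokines IL6 and IL1A rose by log2 changes of 1.905 ± 0.16 and 1.56 ± 0.12 (SE). With 7 of 16 called, leaving out control replicate 2 or 3 gave the lowest count.

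Clustered histone genes rose together. Their messages normally lack a poly(A) tail, and the libraries were made by poly(A) selection, so the values come from the polyadenylated part. Of 71 in the annotation, 29 reached the level for testing and 25 of those rose, with none lower. Of the 25, 8 passed the filter through the PA+OA libraries alone, so the count describes only genes that passed. Leaving out any 1 library kept the count between 22 and 25. HIST1H2AC (ENSG00000180573, chromosome 6, 26124145 to 26139116) had 54.7, 81.4 and 67.1 FPKM in PA+OA libraries and 10.4, 9.02 and 7.56 FPKM in control libraries (log2 change 2.77 ± 0.18, adjusted p = 0.00012). HIST1H2BJ had 36.9, 43.2 and 40.1 FPKM in PA+OA libraries and 4.38, 5.59 and 5.37 FPKM in control libraries. HIST1H2BO and HIST1H4I rose by 2.54 ± 0.21 and 1.69 ± 0.13 (log2, SE). The 71 genes together summed to 784, 789 and 785 FPKM in PA+OA libraries and 272, 225 and 223 FPKM in control libraries. Copies of one histone are near-identical in sequence, so the division of reads among them is uncertain.

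Among fatty acid-sensing genes the response was concentrated in ANGPTL4. It encodes a secreted inhibitor of lipoprotein lipase and is a known PPAR target (ENSG00000167772, chromosome 19, 8363289 to 8374373). ANGPTL4 had 203, 121 and 115 FPKM in PA+OA libraries and 7.39, 7.56 and 7.04 FPKM in control libraries (log2 change 4.096 ± 0.22, adjusted p = 3.7e-05). PA+OA replicate 1 was the highest, and without it the log2 change was 3.84. Of 11 PPAR genes and targets 3 rose and none fell, against 5 and 1 without PA+OA replicate 1. PPARD, the receptor PPAR delta, rose by 0.72 ± 0.12 (log2, SE). SLC25A42, a mitochondrial carrier of coenzyme A, had a log2 change of 0.59 ± 0.13 (limma adjusted p = 0.0141, and 0.0709 without control replicate 3). SLC25A42, 1 of the 3 that rose, passed the filter through the PA+OA libraries alone, so its direction was fixed by it. PDK4, a kinase that holds back pyruvate oxidation, did not pass the test, with 11.8, 21.9 and 27.2 FPKM in PA+OA libraries and 25.2, 26.5 and 22.1 FPKM in control libraries (adjusted p = 0.344). CPT1A, the carnitine transferase that admits fatty acids to mitochondria, had 29.97, 36.4 and 38.9 FPKM in PA+OA libraries and 28.98, 25.8 and 30.6 FPKM in control libraries (adjusted p = 0.175, and 0.0285 without PA+OA replicate 1).

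Of 20 genes of fatty acid oxidation, 1 rose, below the 13.1% over all genes, and 3 fell, near the 15.4% over all genes. None was called without control replicate 2 or 3. With the replicate block 5 rose and 3 fell. SLC25A20, the carnitine carrier, had a log2 change of 0.597 ± 0.15, and HSD17B4, ECI2 and ACADM, enzymes of beta-oxidation, had log2 changes of -0.51 ± 0.14, -0.49 ± 0.15 and -0.41 ± 0.13 (SE). With the GC and length trend removed these 3 were at -0.069, -0.31 and -0.15, and none was called (adjusted p = 0.681, 0.136 and 0.201). Of 15 genes of fatty acid synthesis and desaturation, MID1IP1, a regulator of acetyl-CoA carboxylase, was called (adjusted p = 0.0464, up to 0.182 when 1 library was left out, and 0.148 with the trend removed). With the replicate block 4 of the 15 rose and 5 fell. SCD, the stearoyl-CoA desaturase that makes oleate, had 148, 202 and 205 FPKM in PA+OA libraries and 228, 223 and 249 FPKM in control libraries, lower in every treated library but not past the threshold (adjusted p = 0.168). Of 16 genes of triglyceride metabolism and lipid droplets, 3 were higher, not far from the 13.1% over all genes, and none lower. PNPLA2, the main triglyceride lipase, had 91.3, 55.8 and 62.3 FPKM in PA+OA libraries and 36.6, 27.8 and 28.6 FPKM in control libraries. GPAT3, of the first step of glycerolipid synthesis, rose by 0.804 ± 0.13 and DGAT1, of the last step, by 0.76 ± 0.19 (log2, SE), the last with an adjusted p up to 0.0959 without control replicate 2 or 3. Of 12 uptake genes 1 rose and 4 fell, against 1 lower without control replicate 2 or 3 and 2 lower without PA+OA replicate 2. The 1 that rose, SLC27A1, passed the filter through the PA+OA libraries alone. Among those that fell was SLC27A2, a fatty acid transporter and acyl-CoA synthetase, with 7.49, 9.19 and 9.602 FPKM in PA+OA libraries and 15.1, 17.6 and 18.4 FPKM in control libraries. Of 18 ceramide genes 1 was called, below the 28.5% over all genes. It was CERS5, a ceramide synthase (log2 change 0.61 ± 0.15, adjusted p = 0.0182, and up to 0.0928 without control replicate 2 or 3). Without PA+OA replicate 1, 3 ceramide genes were called, and 5 with the trend removed.

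LPCAT1, which remodels phosphatidylcholine with saturated acyl chains, was among the 12 largest falls. It had 6.53, 7.15 and 7.98 FPKM in PA+OA libraries and 20.9, 26.3 and 27.9 FPKM in control libraries (log2 change -1.66 ± 0.15, adjusted p = 0.000489).

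Among cholesterol synthesis and SREBP2 genes, falls outnumbered rises. Of 25 tested, 9 fell and 1 rose, at a median log2 change of -0.15, against 3 lower and none higher without control replicate 2, 4 lower without control replicate 3 and 5 lower without PA+OA replicate 2. INSIG1, which holds SREBP in the ER when sterol is plentiful (ENSG00000186480, chromosome 7, 155297776 to 155310235), had 15.7, 20.4 and 18.3 FPKM in PA+OA libraries and 44.5, 44.3 and 44.9 FPKM in control libraries (log2 change -1.26 ± 0.14, adjusted p = 0.00108). MSMO1, a sterol methyl oxidase, had 4.24, 5.604 and 5.55 FPKM in PA+OA libraries and 12.5, 14.7 and 11.5 FPKM in control libraries. For INSIG1 and MSMO1 every PA+OA library was below every control library. CYP51A1, lanosterol demethylase, had a log2 change of -0.57 ± 0.13 (adjusted p up to 0.0642 without control replicate 2 or 3). HMGCS1, which makes the precursor of mevalonate, had 2.203, 3.43 and 3.74 FPKM in PA+OA libraries and 3.999, 6.39 and 6.83 FPKM in control libraries (adjusted p = 0.0407, up to 0.154 when 1 of 4 libraries was left out). Of 7 genes of sterol efflux, 2 rose (13.1% over all genes) and none fell. NR1H3 and NR1H2, the receptors LXR alpha and beta, rose by 0.86 ± 0.23 and 0.85 ± 0.23 (log2, SE), and neither was called without control replicate 2 or 3.

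Among growth arrest and death genes more rose than fell, and among proliferation genes more fell than rose. Of 20 genes of the p53 response and cell death, 10 rose and 1 fell, or 6 and 1 without control replicate 2 or 3. GADD45A, a stress sensor that halts the cell cycle (ENSG00000116717, chromosome 1, 67685061 to 67688338), had 94.3, 141 and 111 FPKM in PA+OA libraries and 8.99, 7.84 and 5.11 FPKM in control libraries (log2 change 3.82 ± 0.22, adjusted p = 5.49e-05). CDKN1A, the cyclin-dependent kinase inhibitor p21, had 317, 232 and 217 FPKM in PA+OA libraries and 67.8, 47.8 and 48.2 FPKM in control libraries. GADD45B and PMAIP1, a relative of GADD45A and the BH3-only protein NOXA, rose by 2.43 ± 0.29 and 1.800 ± 0.23 (log2, SE). Of 28 cell cycle genes, 8 fell (15.4% over all genes) and 2 rose (13.1%), at a median log2 change of -0.29. Without control replicate 2 or 3, 5 or 4 fell with none higher. MKI67, the proliferation antigen Ki-67, had 4.16, 7.42 and 9.96 FPKM in PA+OA libraries and 15.9, 30.1 and 28.1 FPKM in control libraries (log2 change -1.67 ± 0.31, adjusted p = 0.00753). CCND1, cyclin D1, had 20.2, 28.5 and 28.97 FPKM in PA+OA libraries and 54.3, 72.9 and 88.9 FPKM in control libraries. TOP2A, a topoisomerase of dividing cells, and CENPF, a kinetochore protein, fell by log2 changes of -1.099 ± 0.15 and -1.496 ± 0.21 (SE).

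Of 21 matrix and fibrosis genes tested, 3 rose, near the 13.1% over all genes. In the same list 5 fell (15.4% over all genes), or 3 without control replicate 2 or 3. CTGF, a matricellular growth factor (ENSG00000118523, chromosome 6, 131948176 to 131951373), had 55.2, 77.3 and 80.5 FPKM in PA+OA libraries and 17.6, 11.9 and 9.62 FPKM in control libraries (log2 change 2.38 ± 0.23, adjusted p = 0.000596). CYR61, its relative, had 313, 312 and 318 FPKM in PA+OA libraries and 115, 73.4 and 65.2 FPKM in control libraries. COL5A1, a fibrillar collagen chain, had 29.4, 27.3 and 25.4 FPKM in PA+OA libraries and 56.1, 58.3 and 54.5 FPKM in control libraries, and fell (log2 change -1.02 ± 0.13). COL1A1, the main chain of type I collagen, had 12.5, 10.4 and 10.8 FPKM in PA+OA libraries and 11.1, 10.3 and 10.2 FPKM in control libraries, which overlap (adjusted p = 0.657). TGFB1, the fibrogenic cytokine, had 41.8, 25.03 and 26.98 FPKM in PA+OA libraries and 29.3, 24.5 and 28.5 FPKM in control libraries, also overlapping (adjusted p = 0.579), and its log2 change was 0.15 with all 6 libraries and -0.07 without PA+OA replicate 1. LUM, a matrix proteoglycan and the 1 stellate marker of 4 tested that was called, had 3.97, 2.098 and 2.19 FPKM in PA+OA libraries and 5.397, 5.0001 and 4.59 FPKM in control libraries (adjusted p = 0.0275, up to 0.0916 when 1 library was left out). Stellate and mesenchymal markers summed to 79.5 to 80.8 FPKM in PA+OA libraries and 89.4 to 99.1 FPKM in control libraries. Of these 11 markers, 7 stayed under 1 FPKM in all 6 libraries and 2 were at 0. VIM alone had 60.1, 63.9 and 62.9 FPKM in PA+OA libraries and 70.7, 69.6 and 79.7 FPKM in control libraries.

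Among 17 Wnt signalling genes 6 fell (15.4% over all genes) and 2 rose (13.1%), at a median log2 change of -0.24. Of the 2 that rose, 1 passed the filter through the PA+OA libraries alone, so its direction was fixed by it. DKK1, a secreted Wnt inhibitor and the largest fall of all protein-coding genes named by the rule (ENSG00000107984, chromosome 10, 52314296 to 52318042), had 6.37, 7.84 and 6.67 FPKM in PA+OA libraries and 40.4, 30.01 and 30.7 FPKM in control libraries (log2 change -2.12 ± 0.16, adjusted p = 0.000206). The ligand WNT5A had 2.51, 3.58 and 4.92 FPKM in PA+OA libraries and 11.5, 13.5 and 12.7 FPKM in control libraries. WNT7B, another ligand, and ZNRF3, a ligase that removes Wnt receptors, fell by log2 changes of -1.26 ± 0.17 and -0.91 ± 0.13 (SE). Of 6 bile duct and epithelial markers tested, 2 fell, among them CD24, a cell surface protein, and 3 without PA+OA replicate 1 or 1 without PA+OA replicate 2 or any 1 control. CD24 had 18.3, 23.8 and 25.1 FPKM in PA+OA libraries and 46.8, 54.6 and 52.9 FPKM in control libraries. The 12 bile duct and epithelial markers together summed to 986 to 1765 FPKM in PA+OA libraries and 935 to 1106 FPKM in control libraries. The top value was in PA+OA replicate 1. Of the 12, 6 stayed under 1 FPKM in all 6 libraries. The epithelial keratin KRT18 alone had 409, 219 and 225 FPKM in PA+OA libraries and 222, 182 and 233 FPKM in control libraries.

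Other groups moved less or in both directions, where 13.1% of all genes tested rose and 15.4% fell. Interferon-stimulated genes gave 3 higher and 6 lower of 16, with 3 lower without control replicate 2, control replicate 3 or PA+OA replicate 2. Of the 6, 1 passed the filter through the control libraries alone, so its direction was fixed by it. IRF7, a factor that induces interferon, had 14.9, 9.82 and 10.3 FPKM in PA+OA libraries and 2.99, 2.84 and 1.96 FPKM in control libraries, while IFIT3, an antiviral effector, had 2.82, 3.49 and 4.02 FPKM in PA+OA libraries and 6.402, 11.03 and 8.93 FPKM in control libraries. Of 25 autophagy and lysosome genes 7 rose and 2 fell, or 3 and 1 without control replicate 2 or 3 and 4 and 1 without PA+OA replicate 2. SQSTM1, the cargo receptor p62, had 588, 443 and 417 FPKM in PA+OA libraries and 213, 187 and 188 FPKM in control libraries. MAP1LC3B, the autophagosome protein LC3B, rose by 1.099 ± 0.18, and ATG16L1, of the conjugation machinery, fell (log2 change -0.75 ± 0.12, SE). Of 18 NRF2 and glutathione genes 3 rose, near the 13.1% over all genes. Among them was OSGIN1, an oxidative stress response gene. It had 78.8, 48.1 and 47.7 FPKM in PA+OA libraries and 12.9, 10.001 and 10.1 FPKM in control libraries. HMOX1, heme oxygenase 1, rose by 1.22 ± 0.18 (log2, SE), and SRXN1, which repairs peroxiredoxins, had an adjusted p of 0.0208 and up to 0.0806 when 1 library was left out.

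Of 9 metallothionein and zinc genes 3 rose and 2 fell. The metal-binding proteins MT1E and MT2A rose by 0.95 ± 0.15 and 1.33 ± 0.22, and the zinc importer SLC39A10 fell (log2 change -1.38 ± 0.13, SE). Of 18 genes of glycolysis and glucose uptake 3 rose, near the 13.1% over all genes. The count was 5 with 1 lower without PA+OA replicate 1, and 7 with 1 lower with the replicate block. Among the 3 were the glucose transporters SLC2A1 and SLC2A3, which rose by 0.901 ± 0.15 and 0.97 ± 0.15 (log2, SE). TXNIP, which restrains glucose uptake, had 4.75, 5.69 and 6.11 FPKM in PA+OA libraries and 3.68, 3.96 and 4.62 FPKM in control libraries, apart in every library but not past the threshold (adjusted p = 0.0837, and 0.0304 with the replicate block). Cytosolic ribosomal proteins gave 1 higher and 1 lower of 76, RPS28 and RPL22, and 29 higher and 2 lower with the block. Nuclear genes of oxidative phosphorylation gave 2 lower of 75, SDHD and UQCRC2, and 20 higher and 4 lower with the block. Of 13 mitochondrially encoded messages 1 was called. MT-ND6, the only one encoded on the light strand of the mitochondrial genome, had 300.3, 275 and 233 FPKM in PA+OA libraries and 747, 796 and 792 FPKM in control libraries (log2 change -1.53 ± 0.17, adjusted p = 0.00105). Without a known strand setting, its reads cannot be told from those of the opposite strand.

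Levels in palmitate alone place these changes. Both treatments share the control libraries, so PA+OA was tested directly against PA, which called 491 of 11070 genes (4.44%), 287 higher (2.59%) and 204 lower (1.84%). This count was 2799 without PA+OA replicate 1, against 99 to 235 when another library was left out. HSPA6 averaged 24.6 ± 3.702 FPKM in PA+OA, 0.779 ± 0.08 FPKM in PA and 2.83 ± 2.21 FPKM in control libraries (SD, n = 3 each), and PA+OA was above PA by 3.84 ± 0.14 (log2, SE, adjusted p = 1.08e-05 in limma). HERPUD1 averaged 193 ± 8.303 FPKM in PA+OA, 41.2 ± 2.66 FPKM in PA and 14.6 ± 5.17 FPKM in control libraries (adjusted p = 0.00017 in limma). DNAJB9 averaged 23.1 ± 0.609 FPKM in PA+OA, 4.05 ± 0.0348 FPKM in PA and 3.84 ± 0.272 FPKM in control libraries (adjusted p of PA+OA against PA = 8.76e-05 in limma). HIST1H2AC averaged 67.8 ± 13.3 FPKM in PA+OA, 10.4 ± 0.901 FPKM in PA and 9.004 ± 1.44 FPKM in control libraries (adjusted p = 0.000227 in limma).

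For INSIG1 the mean in PA+OA lay below that of control and the mean in PA above it (log2 difference of PA to control 0.44, adjusted p = 0.00411 in limma). INSIG1 averaged 18.1 ± 2.38 FPKM in PA+OA, 60.7 ± 1.21 FPKM in PA and 44.6 ± 0.261 FPKM in control libraries (log2 difference of PA+OA to PA -1.695 ± 0.14, adjusted p = 0.000745 in limma). MT-ND6 averaged 269.6 ± 33.8 FPKM in PA+OA, 1106 ± 214 FPKM in PA and 778 ± 27.1 FPKM in control libraries (adjusted p = 0.00174). TXNIP was higher in PA+OA than in PA, with 5.52 ± 0.698 FPKM in PA+OA, 1.44 ± 0.182 FPKM in PA and 4.09 ± 0.48 FPKM in control libraries (adjusted p = 0.00138). ANGPTL4 differed less, at 146 ± 49.2 FPKM in PA+OA, 105 ± 8.89 FPKM in PA and 7.33 ± 0.269 FPKM in control libraries, with a log2 difference of PA+OA to PA of 0.43 ± 0.23 (SE, adjusted p = 0.371 in limma, or 0.0396 once GC and length trends were removed). CHAC1 also missed the threshold with all libraries, at 148 ± 39.2 FPKM in PA+OA, 82.3 ± 9.59 FPKM in PA and 12.9 ± 17.7 FPKM in control libraries (adjusted p = 0.0649 in limma). Its adjusted p was 0.00787 without PA+OA replicate 1 and 0.00424 with the trend removed. Of 163 named genes, 60 were called in PA+OA against PA, where 4.44% of all genes tested were. Among those not called, ATF4 averaged 444 FPKM in PA+OA and 401 FPKM in PA libraries (adjusted p = 0.776 in limma). CDKN1A averaged 255 and 215 FPKM (adjusted p = 0.605), CYR61 314 and 286 FPKM (0.719) and SLC1A4 34.4 and 33.8 FPKM (0.96).

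**Figure D4:**
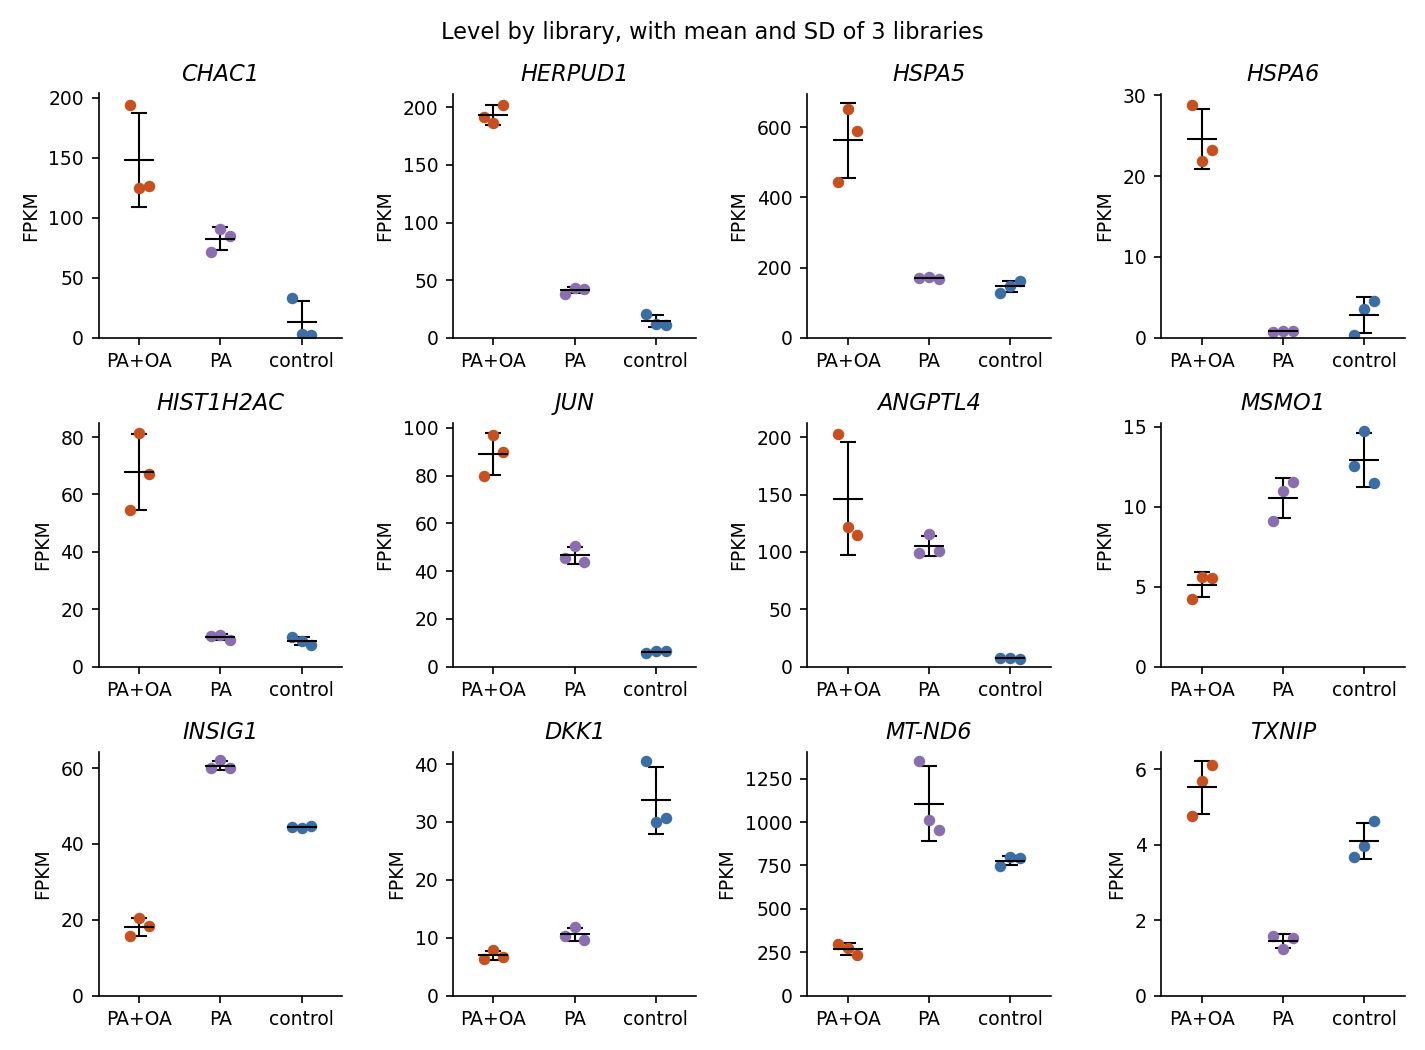
FPKM of 12 genes in each library of PA+OA (orange), PA (violet) and control (blue), with the mean and SD of 3 libraries. HSPA6, HSPA5 and HIST1H2AC are highest in PA+OA, INSIG1 is highest in PA, and ANGPTL4 is high in both treatments.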

How the data were processed

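Messenger RNA of HepaRG cells was taken as poly(A)-selected libraries and sequenced on an Illumina machine, per the labels' protocols. CASAVA, featureCounts 1.5.0-p3 and HISAT2 2.0.5 are listed in the submitters' processing notes, without their roles; build, annotation and strandedness are not given in those notes. The authors deposited FPKM per gene. Symbols of the 58735 genes and both ends of 58724 equal those of GENCODE 29 on GRCh38, whose coordinates are used. FPKM times gene length was a whole multiple of 1 step in 100% of values (tolerance 0.001), which gave reads per library; FPKM is no count, so counts were used only for a limma voom alternative.

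Genes reaching 1 FPKM in 3 or more of the 6 libraries were tested on log2(FPKM + 1) with limma 3.58.1 in R 4.3.3 (eBayes with a trend, two-sided, 4 residual degrees of freedom) and Benjamini-Hochberg adjustment over all genes tested, called at 0.05. The members, the 37 lists and the tests were chosen with earlier results of these data known. Genes were named by rule: the 12 largest rises and 12 largest falls among called protein-coding genes that average 1 FPKM or more in either group and do not overlap, up to 4 members of each list with the smallest p, and a fixed set. EIF2AK2 was added after its value was seen. Some genes the rule names are not reported here. Of 163 such genes tested, 51 overlap another expressed gene, so shared reads are uncertain. In every pair of replicates, counts differed beyond sampling noise (chi-square per gene from 6.58 up to 67.6), and each library was kept as its own sample. Deviations of same-numbered PA+OA and control libraries correlated at 0.52, 0.33 and 0.19, all above 0.1. PA+OA replicate 3 with control replicate 2 (0.43) and PA+OA replicate 2 with control replicate 3 (0.11) were above it too. The first of these exceeds the 0.19 of PA+OA replicate 3 with its own number. Any pairing by number was read from the data and not from a label. It was left out of the main fit, which gave the p-values and counts, and entered only where the replicate block is named. The procedure was tested on simulated reads, where the share of false calls exceeded the nominal level and was lower for voom. These reads had the same dispersion for every gene, no outlying library and no GC trend. The share of false calls in the real libraries may therefore differ and was not measured. Alternatives changed the pseudocount (0.1), the filter (none or 5 FPKM), the scaling, the libraries fitted, the replicate block, library weights and the GC and length trend (splines with 5 degrees of freedom), or left out each library. Floors and intervals from reads cover counting error only.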

Additional observations from a re-analysis of the deposited data

How the results depend on the processing

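Of 130 named genes called in PA+OA against control, 93 stayed called in the same direction under every alternative in which they were tested, and none changed direction. Some low genes, such as IL1A, DUSP6 and SPRY4, were not tested with the filter at 5 FPKM. The 3203 calls became 1524 with no filter on low values, 1978 with a filter at 5 FPKM, 5334 with the replicate block and 6014 with precision weights, and leaving out 1 library gave 1067 to 3784. List members called numbered 239, against 145 with no filter, 377 with the replicate block and 411 with precision weights, and 139 to 291 when 1 library was left out. In PA+OA against PA, the 491 calls became 115 with no filter, 960 with all 12 libraries, 3584 with precision weights, 1080 with the GC and length trend removed, 814 with that and the replicate block, and 2162 with the trend removed and without PA+OA replicate 1, an alternative chosen after seeing the data. Leaving out 1 library gave 99 to 2799. With the replicate block alone the count was 364; same-numbered PA+OA and PA libraries correlated at -0.03, -0.19 and 0.28, so they share only a number. With the trend removed, 3613 genes were called in PA+OA against control, 2365 of them shared, and with voom 3384, 3078 of them shared. Among genes the report names, the calls of HSD17B4, ECI2, ACADM, MID1IP1, SLC25A42, LUM, HMGCS1, RPS28 and UQCRC2 ended with the trend removed, and those of CARS, SLC25A20, SLC27A1, HMGCS1 and MID1IP1 with FPKM sums set equal. The cause of these shifts was not tested.

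Signs changed only for named genes that passed no test with either setting. With library FPKM sums set equal, log2 changes were -0.0809 for TGFB1, -0.14 for COL1A1 and -0.13 for CSF1R. With quantile normalization they were -0.15 for MT-ND4L, -0.0988 for MT-ND4 and -0.0355 for KRT18. With precision weights TGFB1 was at -0.0544. With the GC and length trend removed, with or without the replicate block, they were -0.0333 for HPD, -0.19 for TGFB1, -0.21 for CSF1R, 0.00901 for SPTLC1 and 0.0654 for NDUFS1. With the trend removed and without PA+OA replicate 1 they were -0.13 for KRT18, -0.13 for HPD, -0.25 for TGFB1, -0.14 for CSF1R and 0.18 for PDK4. Leaving out 1 library gave -0.0700 to 0.289 for TGFB1 and -0.0456 to 0.127 for CSF1R.

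Depth limits genes under 1 FPKM, which were not tested, and with 3 libraries a group a single library can decide a call.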

Other observations

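Of 332 antisense genes tested, 77 rose and 17 fell in PA+OA against control, and of 268 long intergenic noncoding RNAs 69 rose and 28 fell, against 1214 higher and 1602 lower of 9833 protein-coding genes. Median log2 changes were 0.20, 0.19 and 0.00. Without PA+OA replicate 1, 81 antisense genes rose and 22 fell, and 71 intergenic RNAs rose and 27 fell. The strand setting is not given in the sources used here, so reads of an antisense gene cannot be told from those of the gene it overlaps.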
